A study of Rattus norvegicus with 60 samples.

Results

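The lungs of rats that had inhaled multi-walled carbon nanotubes (MWCNT, thin fibres of nested carbon sheets) at 22.5 or 90 mg/m3 were compared, to ask which mRNA responses were already full at the lower dose and which grew up to the higher one. Of the 60 libraries of the series, 22 were chosen by their group label. They were 6 from filtered air and 6 from MWCNT in the set of 22.5 mg/m3, and 6 from air and 4 from MWCNT in the set of 90 mg/m3. All came from male Fischer 344 rats about 3 months of age that were caged in groups of 3. The doses are cumulative over exposures of 6 hours on each of 3 days in whole-body chambers, and a piece of lung was taken 1 day later. Each set had its own air rats, which were exposed to air at the time their partners received MWCNT. The measure is a difference of effects, namely MWCNT against air at 90 mg/m3 minus MWCNT against air at 22.5 mg/m3. Dose and exposure run differ together between the sets and cannot be told apart in any value below.

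As background, inhaled nanotubes settle where the small airways meet the alveoli and are taken up by macrophages. Macrophages and epithelial cells then release chemokines, which draw neutrophils, monocytes and lymphocytes from the blood. Epithelial cells divide to repair the lining, and new multiciliated cells form under a set of regulators that includes MCIDAS, cyclin O and the transcription factors FOXJ1 and FOXN4. In whole-tissue RNA, fewer cells of a type and less RNA per cell cannot be told apart.

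The 22 libraries had total counts of 9693742 to 16176867. Lung markers were abundant in all of them, with the surfactant gene Sftpc between 7986 and 14720 CPM (the count scaled to a common library total). MWCNT_090 replicates 5 and 6 carry the submitters' outlier label and were left out. In them, genes of the liver list took 25.8% and 27.6% of counts, against 0.0216% to 0.0561% in the 22. Within the 22, air_022 replicate 2 and MWCNT_022 replicates 5 and 6 stood apart without an outlier label. Ribosomal protein genes took 2.64%, 3.14% and 2.32% of their counts, against 1.63% to 2.07% in the other 19. The median absolute log2 deviation of their genes from the group was 0.249, 0.262 and 0.112, against 0.0496 to 0.102. Each main count is therefore also given for 20 libraries without air_022 replicate 2 and MWCNT_022 replicate 5.

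The effect of MWCNT was widespread at both doses. A gene is called below when edgeR's quasi-likelihood test gave an adjusted p under 0.05 (Benjamini-Hochberg over the 15499 genes tested). At 22.5 mg/m3, 531 genes were higher than in air and 82 were lower, which is 3.96% of the genes tested. At 90 mg/m3, 789 were higher and 343 lower, or 7.3%. Of these, 481 genes were called at both doses in the same direction and 0 in opposite directions, 651 at 90 mg/m3 alone and 132 at 22.5 mg/m3 alone. A call at one dose alone does not show that the doses differ. In the 20 libraries the counts were 763 higher and 186 lower at 22.5 mg/m3, and 1175 and 750 at 90 mg/m3. Leaving out air_022 replicate 2 alone gave 920 higher and 273 lower at 22.5 mg/m3. The falls at 22.5 mg/m3 numbered 44 without air_022 replicate 1, 45 without air_022 replicate 3 and 43 without MWCNT_022 replicate 6. The falls at 90 mg/m3 numbered 202, 164, 177 and 163 without MWCNT_090 replicates 1, 2, 3 and 4.

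Across the 15499 genes the effects at the 2 doses had a Pearson correlation of 0.597, given as a description across genes, which are not independent replicates. The median half-width of the 95% interval of the difference was 0.32 on the log2 scale, without adjustment for the number of genes tested. For a gene of that width a call after adjustment needed a larger difference, and the smallest called difference was 0.61. A difference without a call is therefore not shown to be absent. Genes were sorted by the effects and the interval of their difference. A gene grew if its effect at 90 mg/m3 and the difference were both called in the same direction. It was full at 22.5 mg/m3 if both effects were called in the same direction, the lower dose gave at least a 1.5-fold change, and the 95% interval of any further change ended below 1.5-fold, with no call of the difference. By these rules 4 genes grew (0.0258%), 126 were full (0.813%), 0 became smaller and 1134 with a called effect stayed undecided (7.32%). In the 20 libraries 3 genes grew and 167 were full, and 116 genes were full in both fits.

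**Figure D1:**
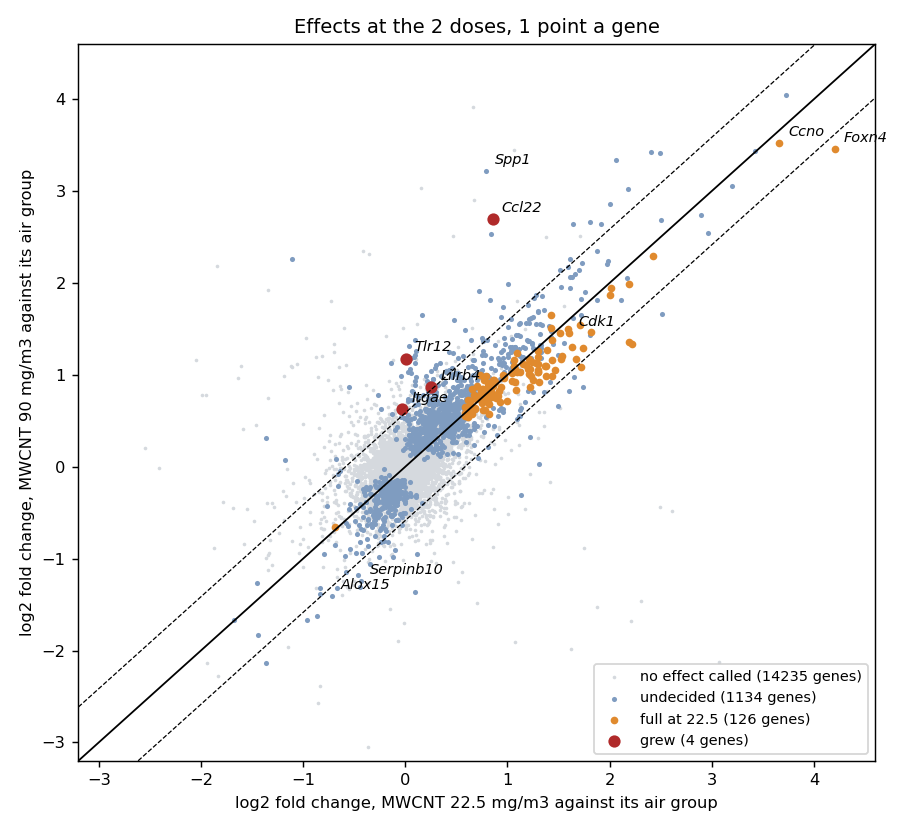
Log2 fold change of MWCNT against air at 22.5 mg/m3 (x axis) and at 90 mg/m3 (y axis), 1 point a gene, coloured by class, with 4 genes outside the axes. The solid line marks equal effects and the dashed lines a 1.5-fold difference; the 126 full genes lie near the solid line or below it, while Ccl22, Tlr12, Lilrb4 and Itgae lie above the upper dashed line.

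The genes that grew were 4 immune genes, and in each all 4 MWCNT_090 rats lay above the other 18 rats. Such a separation was seen in 0.703% of the genes tested. The difference was called for 4 genes in the upward direction and 0 in the downward one by edgeR. At an unadjusted p under 0.05 it was 312 (2.01%) and 271 (1.75%), DESeq2 called 5 and 2, and limma voom called 7 and 0. The count was 2 without air_022 replicate 1, 1 without MWCNT_090 replicate 3, and 0 without air_090 replicate 2 or without MWCNT_090 replicate 2.

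Ccl22 encodes the chemokine CCL22, which dendritic cells and macrophages release to attract T cells through the receptor CCR4. Its level, in CPM scaled by library with edgeR's TMM factors, was 0.575, 1.32 and 1.73 (lowest, median, highest) in air and 1.61, 2.23 and 2.72 in MWCNT of the 22.5 set. In the 90 set it was 0.64, 0.978 and 1.18 in air and 6.16, 6.17, 6.21 and 6.73 in the 4 MWCNT rats. The groups of the 22.5 set overlapped in range, and the 4 rats at 90 mg/m3 lay far above all others and close together. The log2 fold change was 0.85 ± 0.20 (SE) at 22.5 mg/m3 and 2.70 ± 0.21 at 90 mg/m3, and the difference was 1.84 ± 0.30 (edgeR adjusted p = 0.022, 95% interval 1.22 to 2.46). The call was lost in 4 of 34 other settings.

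Tlr12 encodes a Toll-like receptor of endosomes that senses profilin of protozoan parasites in rodents. Its effect at the lower dose was near 0 and not called (edgeR adjusted p = 0.994). Its level in the 22.5 set was 2.49, 3.01 and 3.21 CPM (lowest, median, highest) in air and 2.44, 2.68 and 3.90 in MWCNT. The values of the 90 set were 2.59, 2.68 and 3.14 in air and 6.25, 7.25, 5.55 and 6.12 in MWCNT. The first 3 groups shared the same range and only the fourth stood apart. The log2 fold change was 0.0029 ± 0.13 at 22.5 mg/m3 and 1.18 ± 0.13 at 90 mg/m3, and the difference of 1.17 ± 0.19 had an edgeR adjusted p of 0.022. The call was lost in 3 of 34 other settings.

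Itgae encodes integrin alpha E (CD103), which marks a subset of lung dendritic cells and T cells that lie in epithelia. In the 22.5 set its level was 7.80, 8.89 and 9.81 CPM (lowest, median, highest) in air and 8.06, 8.74 and 9.57 in MWCNT. For the 90 set it was 6.81, 8.48 and 9.33 in air and 13.3, 13.2, 13.1 and 11.6 in MWCNT. MWCNT at 22.5 mg/m3 lay inside the range of its air group, whereas at 90 mg/m3 the groups did not overlap. The difference was 0.66 ± 0.12 on the log2 scale (edgeR adjusted p = 0.0411). It is the least stable of the 4, since the call was lost in 21 of 34 other settings, and in the 20 libraries the adjusted p was 0.109.

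Lilrb4 encodes an inhibitory immunoglobulin-like receptor of myeloid cells. Its family lies in a gene cluster with similar members, so its counts may be shared with near copies. In the 22.5 set its level was 53.8, 60.5 and 64.3 CPM (lowest, median, highest) in air and 66.7, 71.9 and 76.2 in MWCNT. In the 90 set it was 44.2, 54.4 and 66 in air and 94.8, 106, 98.7 and 99.1 in MWCNT. The groups separated at both doses, by more at 90 mg/m3. The log2 fold change was 0.25 ± 0.069 and 0.87 ± 0.075, and the difference of 0.61 ± 0.10 had an edgeR adjusted p of 0.022, a call lost in 5 of 34 other settings. The rise at 22.5 mg/m3 lost its call in 7 of 32.

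**Figure D2:**
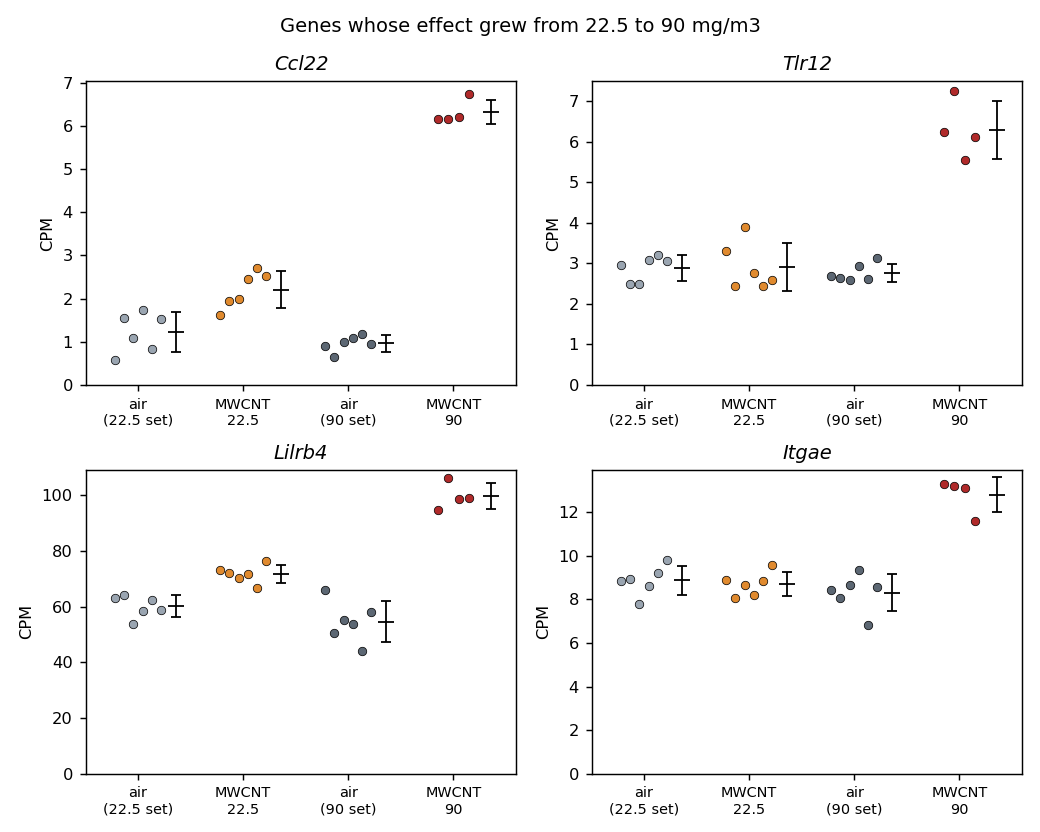
Level in CPM of the 4 genes whose effect grew, by group, with each point 1 rat and the bar beside it the mean with its SD (n = 6, 6, 6 and 4). All 4 MWCNT rats at 90 mg/m3 lie above the other 18 rats in each panel, for Ccl22 at 6.16 to 6.73 CPM against at most 2.72.

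In the rats of the other 3 doses, which took no part in the sorting, the 4 genes were called higher in 0 of 4 at 11.25 mg/m3, 3 of 4 at 45 and 4 of 4 at 180, beside 3, 524 and 1882 of all genes tested. Their median log2 fold change there was -0.036, 0.49 and 1.10. Ccl22 stood at 0.43, 1.72 and 3.65 at the 3 doses and Lilrb4 at -0.076, 0.32 and 1.09, so their values at 180 mg/m3 were above those at 90. Tlr12 stood at -0.0052, 0.65 and 1.10, and Itgae at -0.067, 0.30 and 0.64, and their values at 180 mg/m3 were close to those at 90. Each dose has its own air group and run, and these values are set side by side without a test. Without the outlier label, the air and MWCNT groups held 6 and 5 rats at 11.25 mg/m3, 3 and 6 at 45, and 6 and 5 at 180.

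The full class was led by genes of multiciliated cell formation and of cell division. It held 125 rises and 1 fall. Its median log2 fold change was 0.94 at 22.5 mg/m3 and 0.93 at 90 mg/m3 over the rises. The point estimate was lower at 90 mg/m3 in 86 of the 126 genes and higher in 40, which is a description, since both effects entered the choice. The cell division lists supplied 21 of the 126 genes from 56 tested, and the cilium lists 9 from 47 tested. In the other rats, the 125 rises had a median of 0.17 at 11.25 mg/m3, 0.86 at 45 and 1.09 at 180. Of them, 2, 110 and 117 were called higher at those doses. Between the 2 air groups 5 genes were called (0.0323%), and 0 of them were in the full class or among the 4 that grew. The full genes stood higher in the air rats of the 90 set than in those of the 22.5 set by a median of 0.15 on the log2 scale, and the 4 that grew by a median of -0.12. An equal effect is therefore not always an equal level, and the part of the air groups in the plateau was not tested.

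The regulators of multiciliated cells gave the largest fold changes of the class. Ccno encodes cyclin O, which is needed to make the many centrioles of a multiciliated cell. Its level was 1.23, 1.47 and 1.97 CPM (lowest, median, highest) in air and 17.9, 18.3 and 23.4 in MWCNT of the 22.5 set. The values of the 90 set were 1.37, 2.05 and 2.44 in air and 22.6, 20.6, 24.4 and 22.4 in MWCNT. All 10 exposed rats lay far above the 12 air rats, as in 192 of the genes tested (1.24%), and the exposed groups overlapped each other. The log2 fold change was 3.66 ± 0.12 at 22.5 mg/m3 and 3.52 ± 0.12 at 90 mg/m3. The difference of -0.14 ± 0.18 had a 95% interval of -0.51 to 0.24, which leaves room for a further rise of at most 1.18-fold.

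Foxn4, a forkhead transcription factor of the same program, was close to absent in air, at 0, 0.217 and 0.507 CPM (lowest, median, highest) in the 22.5 set and 0.0873, 0.523 and 0.824 in the 90 set. It reached 3.75, 4.27 and 5.40 CPM with MWCNT at 22.5 mg/m3 and 5.99, 4.83, 4.51 and 6.12 at 90 mg/m3, again with no overlap between exposed and air rats. Its log2 fold change was 4.20 ± 0.34 and 3.46 ± 0.31. Foxj1, which switches on the genes of the motile cilium, rose by 0.76 ± 0.13 and 0.85 ± 0.14, and Stil, which encodes a centriole assembly protein, by 2.0 ± 0.16 and 1.87 ± 0.17. Mcidas, the co-activator upstream of Ccno, rose at both doses (2.41 ± 0.29 and 3.42 ± 0.34) but stayed undecided, with a difference of 1.01 ± 0.49 and an interval of 0.0084 to 2.02. Plk4, the kinase that starts centriole duplication, was undecided too, at 1.29 ± 0.14 and 1.69 ± 0.15.

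Of 18 tested regulators of multiciliated cells, 7 rose at 22.5 mg/m3, 10 rose at 90 mg/m3 and 4 were full, with a median log2 fold change of 0.33 and 0.57. Of 29 tested axoneme genes, which build the beating core of the cilium, 13 rose at 22.5 mg/m3, 11 rose at 90 mg/m3 and 5 were full, with medians of 0.42 and 0.44. The background of higher calls was 3.43% and 5.09% of all genes tested. Among the full axoneme genes, Dnai2, a dynein arm chain, rose by 0.80 ± 0.12 and 0.91 ± 0.13, and Dnaaf1, a dynein assembly factor, by 0.93 ± 0.12 and 0.71 ± 0.13. Tekt2, a filament protein of cilia, rose at 22.5 mg/m3 (0.59 ± 0.11) and had a value of 0.27 ± 0.12 at 90 mg/m3 (edgeR adjusted p = 0.219). Tekt2 was called at 90 mg/m3 in the 20 libraries (edgeR adjusted p = 0.0466) and was full. There, 18 axoneme genes rose at 22.5 mg/m3 and 16 at 90 mg/m3, with 9 full.

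Genes of cell division formed the largest block of the class. Of 30 tested genes of mitosis and cytokinesis, 28 rose at 22.5 mg/m3, 29 rose at 90 mg/m3, and 17 were full. Their median log2 fold change was 1.15 and 1.08, against -0.010 and -0.0099 over all genes tested. Of 26 tested genes of DNA replication, 18 and 19 rose and 4 were full, with medians of 0.55 and 0.61. The median difference was 0.024 for mitosis (-0.0245 in the 20 libraries) and 0.038 for replication, and 0 members of either list had a called difference or an unadjusted p under 0.05. The summed level of the mitosis list was 398 to 530 CPM in MWCNT at 22.5 mg/m3 and 541 to 591 CPM at 90 mg/m3, and 231 to 272 and 237 to 318 CPM in their air groups.

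Cdk1 encodes the kinase that drives entry into mitosis. Its level was 3.78, 4.84 and 6.45 CPM (lowest, median, highest) in air and 12.3, 14.9 and 19 in MWCNT of the 22.5 set. For the 90 set it was 4.57, 6.43 and 7.27 in air and 15.3, 19.1, 18 and 16.0 in MWCNT. Exposed and air rats did not overlap, and the 2 exposed groups overlapped. The log2 fold change was 1.61 ± 0.13 and 1.45 ± 0.14, which allows a further rise of at most 1.19-fold. Mki67, the proliferation marker Ki-67, rose by 1.10 ± 0.11 and 1.23 ± 0.12. Its exposed rats at 90 mg/m3, at 31.8 to 37.3 CPM, lay above those at 22.5 mg/m3, at 20.8 to 26.8 CPM, and the air medians were 14.6 and 10.8 CPM.

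Other full division genes act at several steps of the cycle. Mcm5, a subunit of the replicative helicase, rose by 1.29 ± 0.10 and 1.26 ± 0.11, and Tk1, the thymidine kinase of S phase, by 0.96 ± 0.11 and 1.0 ± 0.12. E2f7, a repressor of replication genes, rose by 2.2 ± 0.17 and 1.99 ± 0.17. Nek2, a kinase that separates the centrosomes, rose by 2.43 ± 0.18 and 2.29 ± 0.19. Cdc20, an activator of the anaphase-promoting complex, rose by 1.43 ± 0.10 and 1.65 ± 0.11, and it was no longer full in the 20 libraries. Ube2t, a ubiquitin-conjugating enzyme of DNA repair, had the lowest difference of the class (2.21 ± 0.27 and 1.33 ± 0.26, difference -0.88 ± 0.39), which was not called (edgeR adjusted p = 1). Full refers to the step up to 90 mg/m3 only. In the rats of the 180 mg/m3 set, Mki67, Mcm5 and Tk1 stood above both doses, at 1.66, 1.71 and 1.54. Cdk1, E2f7, Nek2, Cdc20 and Ube2t stood there at 1.59, 2.17, 2.34, 1.55 and 2.13. These values are set beside the others without a test.

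**Figure D3:**
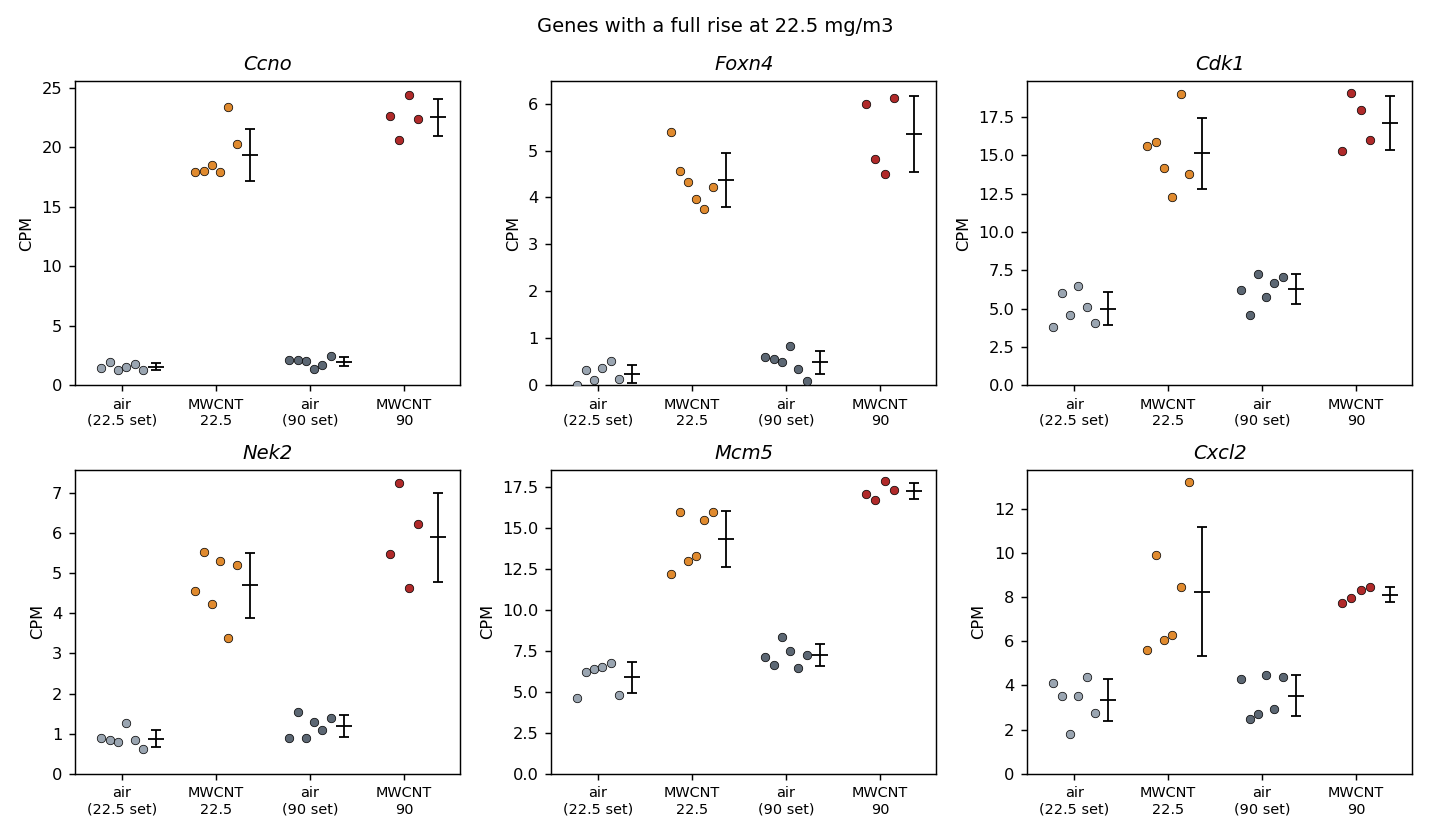
Level in CPM of 6 genes of the full class by group, with each point 1 rat and the bar beside it the mean with its SD (n = 6, 6, 6 and 4). Exposed rats of both sets lie above the air rats, for Ccno at 17.9 to 24.4 CPM against 1.23 to 2.44 CPM.

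The 250 bases before the start of Cdk1, Mki67, Ccno, Dnai2 and Ccl22 are printed, the first 4 as full genes that rose together and the last as the gene that grew most. They are from RefSeq on build GRCr8, 5′ to 3′ on the strand of the gene. Capitals mark CCAAT (the CCAAT box bound by NF-Y), TTTGAA (the cell cycle homology region, or CHR) and GTTGCC (one arm of the X-box bound by RFX factors), each searched on both strands. Cdk1 lies at chr20:19265043-19265292 (forward strand), Mki67 at chr1:199952594-199952843 (reverse strand), Ccno at chr2:46363824-46364073 (forward strand), Dnai2 at chr10:100258772-100259021 (forward strand) and Ccl22 at chr19:10270360-10270609 (reverse strand).
Cdk1: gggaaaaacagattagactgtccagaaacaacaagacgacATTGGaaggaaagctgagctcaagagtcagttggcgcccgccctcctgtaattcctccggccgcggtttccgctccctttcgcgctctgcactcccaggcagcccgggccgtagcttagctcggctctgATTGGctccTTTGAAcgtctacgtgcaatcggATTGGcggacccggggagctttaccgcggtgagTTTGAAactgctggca
Mki67: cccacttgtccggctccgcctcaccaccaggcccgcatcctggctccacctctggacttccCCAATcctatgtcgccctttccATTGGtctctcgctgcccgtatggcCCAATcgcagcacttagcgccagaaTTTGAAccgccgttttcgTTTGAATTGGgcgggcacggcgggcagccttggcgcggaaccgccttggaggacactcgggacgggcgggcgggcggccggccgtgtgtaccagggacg
Ccno: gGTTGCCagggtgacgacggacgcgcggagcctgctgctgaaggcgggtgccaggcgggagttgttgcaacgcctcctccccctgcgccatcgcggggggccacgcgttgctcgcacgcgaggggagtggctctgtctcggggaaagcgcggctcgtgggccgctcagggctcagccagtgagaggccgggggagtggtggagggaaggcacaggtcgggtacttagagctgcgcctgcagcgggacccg
Dnai2: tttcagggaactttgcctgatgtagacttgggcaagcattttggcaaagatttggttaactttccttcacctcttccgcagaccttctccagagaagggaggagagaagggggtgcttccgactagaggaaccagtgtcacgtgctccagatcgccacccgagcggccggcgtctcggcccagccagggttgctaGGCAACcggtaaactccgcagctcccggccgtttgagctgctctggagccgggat
Ccl22: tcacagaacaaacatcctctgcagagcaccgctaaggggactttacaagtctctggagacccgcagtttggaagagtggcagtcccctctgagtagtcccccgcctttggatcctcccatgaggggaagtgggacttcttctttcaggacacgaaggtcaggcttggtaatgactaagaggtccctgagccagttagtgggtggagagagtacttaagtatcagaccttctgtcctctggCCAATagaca

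The Cdk1 window held 3 CCAAT matches and 2 TTTGAA matches, and Mki67 held 4 and 2, of which 1 pair shared a base. Ccno and Dnai2 each held 1 GTTGCC match, and Ccl22 held 1 CCAAT match. Of the 126 full genes, 94 had a promoter in the table. CCAAT was found in 44.7% of them and in 34.3% of the 27457 promoters of the table, TTTGAA in 25.5% and 16.0%, and GTTGCC in 21.3% and 9.90%. Of the full genes in the cell division lists, 16 of 18 with a promoter held CCAAT and 8 held TTTGAA. Of those in the cilium lists, 4 of 7 held GTTGCC. Over the 10540 genes tested that had a promoter, the shares were 35.1%, 10.4% and 10.3%. Among all tested members of the cell division lists, 31 of 43 with a promoter held CCAAT (72.1%) and 12 held TTTGAA (27.9%). Among all tested members of the cilium lists, 15 of 40 with a promoter held GTTGCC (37.5%). The full genes are among these members. Whether a match is more common in the full genes than in the rest of their lists was not tested. A match describes the letters only and is neither a site nor a cause.

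Some inflammatory genes were full at 22.5 mg/m3. Cxcl2, a chemokine that attracts neutrophils, had a level of 1.8, 3.54 and 4.39 CPM (lowest, median, highest) in air and 5.59, 7.36 and 13.2 in MWCNT of the 22.5 set. In the 90 set it was 2.47, 3.62 and 4.48 in air and 7.73, 7.96, 8.30 and 8.46 in MWCNT, inside the range of the lower dose. Its log2 fold change was 1.30 ± 0.22 and 1.19 ± 0.24, and it lost its class in the 20 libraries. Sod2, the mitochondrial superoxide dismutase, rose by 0.79 ± 0.079 and 0.98 ± 0.086, and Zc3h12a, an RNase that degrades cytokine mRNA, by 0.65 ± 0.11 and 0.58 ± 0.12. In the rats of the 180 mg/m3 set Cxcl2, Sod2 and Zc3h12a stood higher, at 1.75, 1.40 and 1.09, without a test.

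Many other inflammatory genes that rose at both doses stayed undecided, because the interval of the difference reached 1.5-fold or the effect at 22.5 mg/m3 was under 1.5-fold. Of 21 tested chemokines for monocytes and T cells, 10 rose at 22.5 mg/m3 and 12 at 90 mg/m3, and Ccl22 alone had a called difference. The background of higher calls was 3.43% and 5.09% of all genes tested, and that of upward differences 0.0258%. Ccl2, the main monocyte chemokine, rose by 1.63 ± 0.17 and 2.06 ± 0.18, a difference of 0.43 ± 0.25 with an interval of -0.088 to 0.95. Ccl7 rose by 1.64 ± 0.30 and 2.64 ± 0.32, and Ccl17, the other CCR4 ligand, by 1.34 ± 0.27 and 1.86 ± 0.28. Their intervals of the difference were 0.080 to 1.93 and -0.29 to 1.34.

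The neutrophil chemokines showed similar values at the 2 doses. Cxcl1 rose by 1.33 ± 0.24 and 1.2 ± 0.26 and Cxcl6 by 2.17 ± 0.39 and 2.05 ± 0.41, but their intervals allowed a further rise of 1.59-fold and 2.1-fold. Il1r2, the decoy receptor of interleukin 1 that neutrophils and monocytes carry, rose by 1.01 ± 0.17 and 1.98 ± 0.19. Its difference of 0.98 ± 0.26 was not called by edgeR (adjusted p = 0.694), and limma voom called it (adjusted p = 0.0442). Il1b rose by 0.68 ± 0.15 and 0.81 ± 0.17, and Il1rn, the interleukin 1 receptor antagonist, by 0.51 ± 0.077 and 0.57 ± 0.085. The interval for Il1rn ended at a further 1.23-fold, and it was undecided since its effect at 22.5 mg/m3 was 1.42-fold. Il6 and Tnf had too few counts to be tested.

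Many acute phase and innate defence genes rose at both doses. Of 18 tested, 10 rose at 22.5 mg/m3 and 12 at 90 mg/m3, beside 3.43% and 5.09% of all genes tested. The median log2 fold change of the list was 0.53 and 0.70. Chia and Chi3l1, chitinase family proteins of macrophages and epithelium, rose by 1.98 ± 0.12 and 2.21 ± 0.13 and by 1.07 ± 0.12 and 1.30 ± 0.13. C3, the central complement protein, rose by 0.91 ± 0.10 and 1.18 ± 0.11. The intervals of Chia and Chi3l1 ended just outside the bound, at a further 1.51-fold and 1.52-fold, as did that of C3, and the widest inside it was 1.49-fold. Chi3l1 was full in the 20 libraries, and there 3 genes of the list were full against 0 in the 22. Lcn2, an iron-binding defence protein, rose by 1.61 ± 0.21 and 2.06 ± 0.23, and Retnla, a secreted product of macrophages under type 2 cytokines, by 2.0 ± 0.34 and 2.86 ± 0.36. Beside these values, the 16 tested genes of the liver list had a median log2 fold change of -0.098 at 22.5 mg/m3 and 0.91 at 90 mg/m3, and 14 of 16 had a positive difference. The median difference over all genes tested was -0.00095. The summed level of all 20 genes in the liver list was 280 to 561 CPM in MWCNT at 90 mg/m3, 229 to 313 CPM at 22.5 mg/m3 and 216 to 352 and 222 to 308 CPM in the air groups of the 22.5 and 90 sets. In the 20 libraries the median of the liver list at 22.5 mg/m3 turned to 0.23, and 4 of 13 were called at 90 mg/m3. In the 22 libraries 2 were called at 90 mg/m3, Tf (0.47 ± 0.096) and Hpx (0.70 ± 0.17, lost without MWCNT_090 replicate 4). MWCNT_090 replicate 4 had the highest liver share of the 22, 0.0561%, and the part of a liver trace in the acute phase values was not tested.

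Spp1 had the largest difference among the named genes without a call. It encodes osteopontin, a secreted phosphoprotein of macrophages in injured lung. Its level was 2.28, 9.06 and 26.2 CPM (lowest, median, highest) in air and 12.1, 18.2 and 30.8 in MWCNT of the 22.5 set, and 4.28, 5.91 and 16.0 in air of the 90 set. The MWCNT rats at 90 mg/m3 had 56.9, 73.5, 75.2 and 73 CPM. They lay above all other rats, whereas air and MWCNT of the 22.5 set overlapped. The log2 fold change was 0.79 ± 0.41 (edgeR adjusted p = 0.375) and 3.22 ± 0.45, and the difference of 2.43 ± 0.61 had an edgeR adjusted p of 0.577.

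Monocyte and dendritic cell genes were called mainly at the higher dose. Of 17 tested, 1 rose at 22.5 mg/m3 and 6 at 90 mg/m3 (2 and 9 in the 20 libraries), and 15 of 17 had a positive difference, with a list median of 0.18. Over all genes tested in the 22 libraries, 3.43% and 5.09% were called higher, and the median difference was -0.00095. The summed level of the list was 477 to 496 CPM in MWCNT at 90 mg/m3 and 380 to 419 CPM at 22.5 mg/m3, against 339 to 373 and 351 to 370 CPM in the air groups of the 22.5 and 90 sets. Clec9a, a receptor for dead cells on the dendritic cells that cross-present antigen, had 5.24, 6.15 and 7.45 CPM (lowest, median, highest) in air and 4.97, 6.99 and 7.39 in MWCNT of the 22.5 set. In the 90 set it had 5.22, 6.06 and 8.14 CPM in air and 10.7, 9.93, 11.4 and 11.7 in MWCNT, where the groups did not overlap. Its difference of 0.76 ± 0.18 was not called in the 22 libraries (edgeR adjusted p = 0.474), and in the fit of all 53 libraries it was (adjusted p = 0.0423). Irf8, a transcription factor of monocytes and dendritic cells, rose at 90 mg/m3 by 0.49 ± 0.060, with 96.5 to 100 CPM in the MWCNT rats against at most 78.5 CPM elsewhere.

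Other genes of these cells had the same order of values. Itgam, the integrin CD11b of myeloid cells, had 0.35 ± 0.14 and 0.98 ± 0.15, and Irf4, a factor of dendritic and B cells, had 0.22 ± 0.098 and 0.75 ± 0.10, with a call at 90 mg/m3 alone in both. Itgam was called at 22.5 mg/m3 too in the 20 libraries (edgeR adjusted p = 0.0389). Ciita, the master regulator of MHC class II, had -0.10 ± 0.094 and 0.40 ± 0.10, called at 90 mg/m3, a call lost without MWCNT_090 replicate 1 and in the 24 libraries that include the 2 of the outlier label. It was the 1 called gene of 10 in the MHC class II list, of which 4 were called higher at 90 mg/m3 in the 20 libraries. The differences of these 3 were not called by edgeR (adjusted p from 0.708 to 1), and among 22 T and NK cell markers 0 genes were called at either dose. In the 20 libraries 1 of those 22 markers was called higher at 90 mg/m3, beside 1175 of all 15461 genes tested there. At an unadjusted p under 0.05 in the main fit, 1 of those 22 markers had a positive difference and 1 a negative one.

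**Figure D4:**
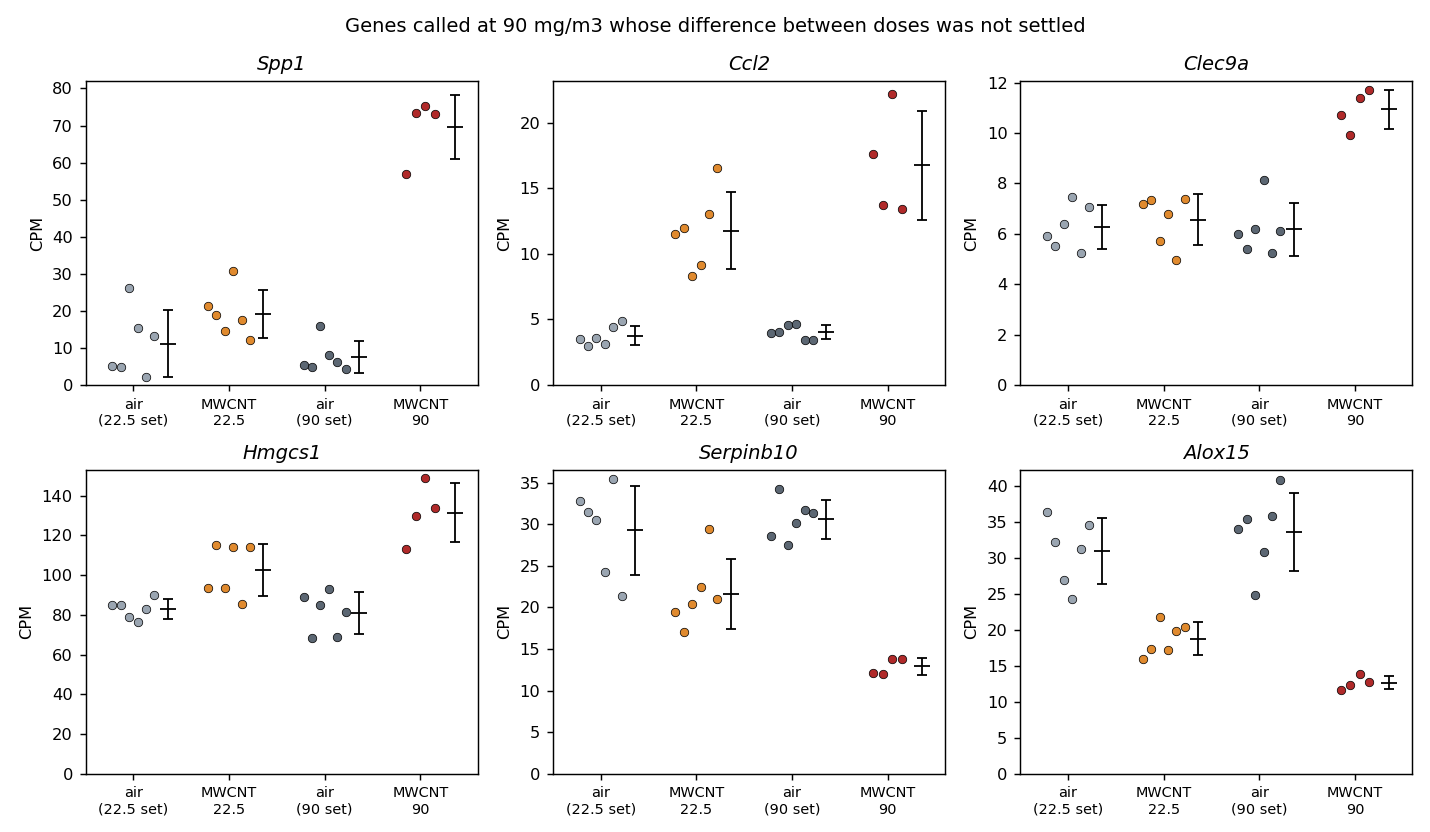
Level in CPM by group of 6 genes that were called at 90 mg/m3 and whose difference between the doses was not called, with each point 1 rat and the bar beside it the mean with its SD (n = 6, 6, 6 and 4). The MWCNT rats at 90 mg/m3 lie beyond all others for Spp1 (56.9 to 75.2 CPM), Clec9a, Serpinb10 (12.0 to 13.8 CPM) and Alox15, and overlap those at 22.5 mg/m3 for Ccl2 and Hmgcs1.

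Cholesterol synthesis genes had more calls at 90 than at 22.5 mg/m3. Of 23 tested, 2 rose at 22.5 mg/m3 and 12 at 90 mg/m3, beside 3.43% and 5.09% of all genes tested. The median log2 fold change of the list was 0.22 and 0.42. The difference was above 0 in 22 of 23 genes and called in 0, and 8 had an unadjusted p under 0.05, beside 2.01% of all genes tested in that direction. Over all genes tested the median difference was -0.00095. In the 20 libraries 8 rose at 22.5 mg/m3 and 17 at 90 mg/m3. Hmgcs1, which makes the precursor of mevalonate, rose by 0.70 ± 0.098 at 90 mg/m3. Its rise of 0.31 ± 0.089 at 22.5 mg/m3 lost its call in 17 of 32 other settings. Idi1, an isomerase further down the pathway, had 0.37 ± 0.12 and 0.90 ± 0.14, and Cyp51, the lanosterol demethylase, had 0.27 ± 0.092 and 0.66 ± 0.10, both called at 90 mg/m3 alone. Cyp51 was called at 22.5 mg/m3 too in the 20 libraries (edgeR adjusted p = 0.045).

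Falls were fewer than rises, and 1 fall, of a gene without a name, was full. Serpinb10, a serine protease inhibitor of leukocytes, had 21.4, 31.0 and 35.4 CPM (lowest, median, highest) in air and 17.0, 20.7 and 29.4 in MWCNT of the 22.5 set. In the 90 set it had 27.5, 30.8 and 34.2 CPM in air and 12.1, 12.0, 13.8 and 13.8 in MWCNT, below all other rats. Its log2 fold change was -0.44 ± 0.12 and -1.25 ± 0.14. The difference of -0.81 ± 0.18 was not called by edgeR (adjusted p = 0.354) and was called by DESeq2 (adjusted p = 0.0476), and the fall at 22.5 mg/m3 lost its call in 9 of 32 other settings. Alox15, the 15-lipoxygenase of eosinophils and macrophages, had 24.3, 31.7 and 36.4 CPM in air and 16.0, 18.6 and 21.8 in MWCNT of the 22.5 set, and 24.8, 34.7 and 40.8 in air and 11.7, 12.3, 13.8 and 12.8 in MWCNT of the 90 set. Its groups separated at both doses, with changes of -0.72 ± 0.11 and -1.41 ± 0.13 and a difference of -0.69 ± 0.17 (edgeR adjusted p = 0.475). The share of all genes tested that separated downward, as Serpinb10 and Alox15 did, is not given here. These separations therefore describe single genes.

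Some airway and vessel genes fell at both doses or at the higher one. Cyp4b1, a cytochrome P450 of club cells, fell at both, with log2 fold changes of -0.42 ± 0.052 and -0.69 ± 0.060, with 447 to 505 CPM in MWCNT at 22.5 mg/m3 and 373 to 388 CPM at 90 mg/m3. Abcd2, a peroxisomal fatty acid transporter, also fell at both, with -0.54 ± 0.12 and -0.90 ± 0.14. Scgb1a1, the secretoglobin that club cells release, had -0.20 ± 0.16 and -0.59 ± 0.18, and its call at 90 mg/m3 was lost in 17 of 32 other settings. Of 18 tested club cell and xenobiotic genes, 2 fell at 22.5 mg/m3 and 5 at 90 mg/m3, and 1 rose at 22.5 mg/m3. Over all genes tested, 0.529% were called lower at 22.5 mg/m3 and 2.21% at 90 mg/m3, and 3.43% were called higher at 22.5 mg/m3. Of 22 tested endothelial genes, 0 fell at 22.5 mg/m3 and 4 at 90 mg/m3, where the background of lower calls was 2.21%. In the 20 libraries 2 and 10 endothelial genes fell at the 2 doses, beside 186 and 750 of all 15461 genes tested there. Sox17, an arterial transcription factor of that list, had -0.076 ± 0.064 and -0.31 ± 0.072.

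Single stress and early-response genes had low or opposite values at the lower dose. Of 22 tested immediate early genes, 2 rose at each dose and 1 fell at 90 mg/m3, with a median difference of -0.0018. Of 26 tested amino acid stress genes, 3 rose at 22.5 mg/m3 and 6 at 90 mg/m3, and Ddit4 alone fell, at 22.5 mg/m3. The background was 3.43% and 5.09% of all genes tested for higher calls, and 0.529% and 2.21% for lower ones. Nr4a3, an early-response nuclear receptor, rose by 0.59 ± 0.17 and 1.48 ± 0.18, the first of which lost its call in 18 of 32 other settings. Ddit4, a stress-induced inhibitor of mTOR, had a called log2 fold change of -1.37 ± 0.38 at 22.5 mg/m3, lost in 22 of 32 other settings, and had 0.31 ± 0.41 at 90 mg/m3. Nfkbia, the inhibitor of NF-kB, had -0.63 ± 0.24 and 0.36 ± 0.26 with no call. The differences of these 3 genes were not called by edgeR (adjusted p from 0.708 to 1).

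Of 27 tested interferon-stimulated genes, 0 were called at 22.5 mg/m3 and 1, Ifit1, was higher at 90 mg/m3 (0.99 ± 0.20), which is near the background of higher calls (3.43% and 5.09%). The median log2 fold change of the list was 0.096 and -0.25, and the difference was above 0 in 2 of the 27, where the median difference over all genes tested was -0.00095. At an unadjusted p under 0.05 the difference was lower in 5 of the 27 (1.75% of all genes tested) and higher in 1. The summed level of the list reached 3862 CPM in 1 air rat of the 90 set against a median of 2396 CPM in that group, and the part of that rat in the median was not tested. Irf9, a subunit of the interferon-activated complex, had 0.068 ± 0.085 and -0.26 ± 0.096. Sftpa1, a surfactant protein, and Cyp1a1, a marker of the aryl hydrocarbon receptor, were called at neither dose.

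**Figure D5:**
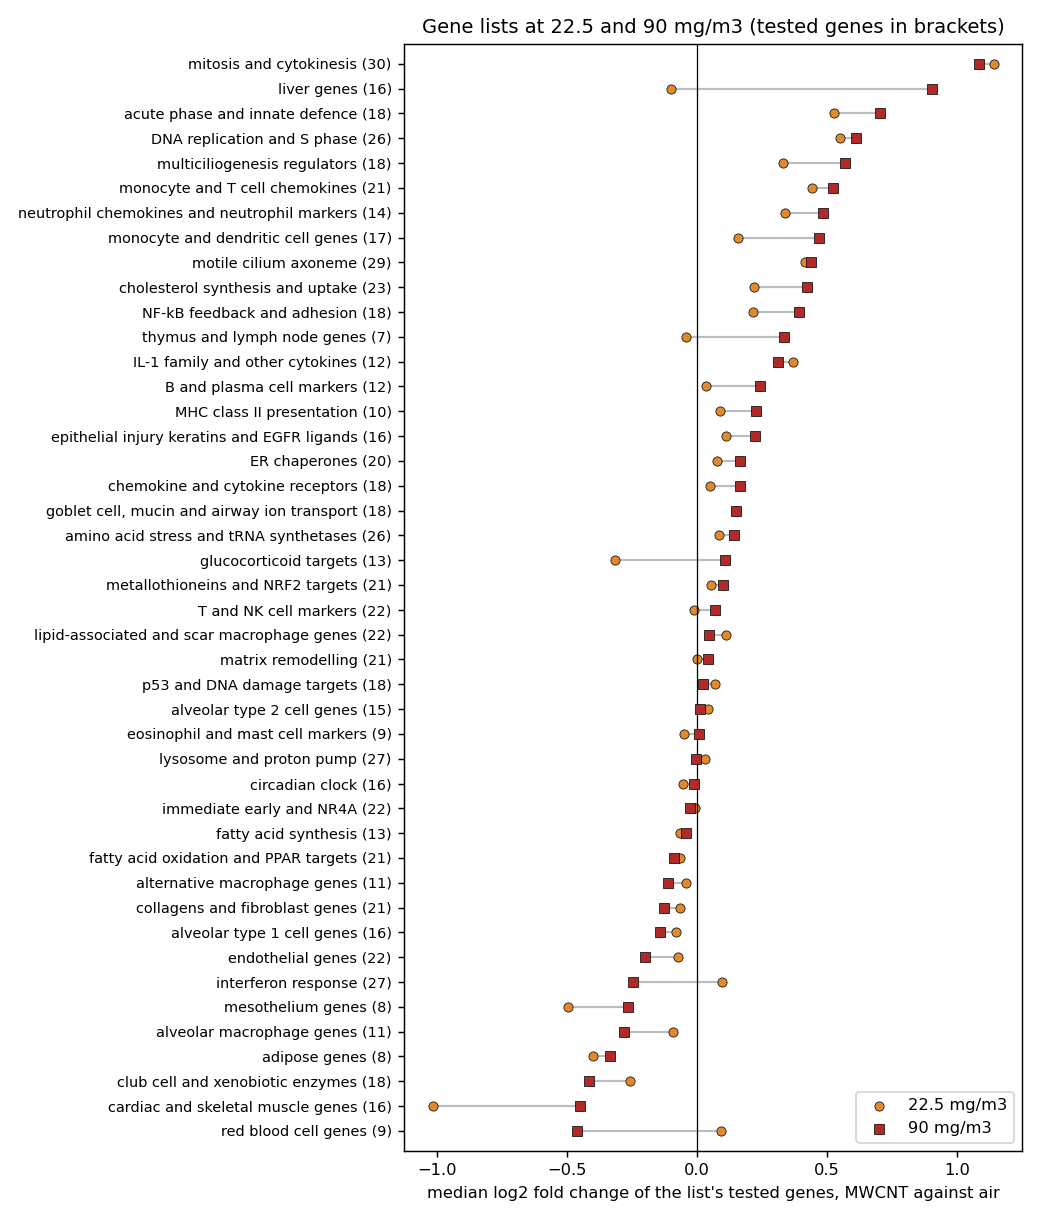
Median log2 fold change of the tested genes of 44 gene lists at 22.5 mg/m3 (circles) and 90 mg/m3 (squares), ordered by the value at 90 mg/m3, with the number of tested genes in brackets. The mitosis list stands at 1.15 and 1.08, and cholesterol synthesis at 0.22 and 0.42.

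A choice of genes in other rats does not use the values at 22.5 or 90 mg/m3. A choice by a large change at 180 mg/m3 can still favour genes whose change goes on with dose. A larger value at 90 mg/m3 is therefore partly built into that choice. In the set of 180 mg/m3, 290 genes had a called rise of at least 2-fold and 42 a called fall of that size. The 290 rises had a median log2 fold change of 0.95 at 22.5 mg/m3 and 1.09 at 90 mg/m3, with a median difference of 0.18, and 203 of them (70%) stood higher at 90 mg/m3. For single rats another measure was used, log2 of CPM plus 0.5 minus its mean in the air group. The added 0.5 CPM pulls genes of low level toward 0, so these values are not on the scale of the group medians. On that measure the median of the 290 genes ran from 0.64 to 0.87 in the 6 rats at 22.5 mg/m3. In the 4 rats at 90 mg/m3 it ran from 0.85 to 0.98, so the ranges overlapped. The 42 falls had medians of -0.47 and -0.67, and 34 of them (81.0%) stood lower at 90 mg/m3. When rises were chosen in the set of 45 mg/m3, which kept 3 air rats, the 181 genes had medians of 1.11 and 1.22. Of them, 97 (53.6%) stood higher at 90 mg/m3.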

How the data were processed

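Whole-lung RNA was sequenced from single rats, and the authors deposited 1 table of raw counts per gene. Per the submitters' processing notes the tools were bcl2fastq 2.19, Trimmomatic 0.35, HISAT2 2.1.0, Cufflinks, SAMtools 1.8 and HTSeq 0.11.2. Which genome build, annotation and strand setting were used is not given in the sources used here. The 22 libraries were fitted in 1 model of 4 groups with edgeR 4.0.16 in R 4.3.3 (TMM scaling, filterByExpr with a minimum count of 10, robust quasi-likelihood test), which kept 15499 of 30045 genes and 99.908% of counts. Levels are TMM-scaled CPM. The p-values set differences between group means against the spread between these rats. Variation between exposure runs is not in that spread, and the cages of 3 rats were not modelled. limma 3.58.1 voom and DESeq2 1.42.0 were alternatives. Dates stood in place of 27 symbols, and 2 symbols were repeated. The method was tested on simulated data. Genes could be named if they averaged at least 1 CPM, carried a gene-name symbol and were among the 8 largest rises or 5 largest falls of a class, among the members of a list with the smallest p (3 for the difference, 2 at 22.5 mg/m3), or in a set of genes named in every case. Members and lists were chosen with earlier results of these data known. The 20- and 19-library fits were chosen after seeing the data.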

Additional observations from a re-analysis of the deposited data

Results flagged for a closer look

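The difference of effects itself was called for 4 genes, at a log2 value of 1.84 for Ccl22, 1.17 for Tlr12, 0.61 for Lilrb4 and 0.66 for Itgae. Dose and run cannot be told apart in these values.

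The 2 libraries left out for their outlier label, MWCNT_090 replicates 5 and 6, held 25.8% and 27.6% of their counts in genes of the liver list, while no air library of the 22 exceeded 0.0352%.

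Single rats stood apart from their group in 18 of 244 combinations of gene and group. The rule was the gap to the nearest value as a share of the range of the group. It can flag a small gap, as for Ccl22 in MWCNT_090 (6.73 against 6.21 CPM). Chance gives about 1 in 20 for independent normal values, and genes of the same library are not independent. In air_022, replicate 2 was highest for Tekt2 (26.1 CPM), Ube2t (0.934), Scgb1a1 (10220) and Tf (100.6), and replicate 6 for Ccl7 (2.70). In MWCNT_022, replicate 6 was highest for Ccl7 (6.89 CPM), replicate 5 for Cdc20 (15.0) and replicate 4 for Ddit4 (46.9). In air_090, replicate 3 was highest for Spp1 (16.0 CPM) and replicate 4 for Clec9a (8.14).

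In MWCNT_090, replicate 4 was highest for Ccl22 (6.73 CPM) and Hpx (18.3) and lowest for Itgae (11.6). Replicate 3 was highest for Cxcl6 (17.4 CPM) and Irf9 (104) and lowest for Nfkbia (226). Replicate 1 was lowest for Spp1 (56.9 CPM) and replicate 2 highest for Itgam (62).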

How the results depend on the processing

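No called effect or difference of a named gene, and no median of the genes chosen in other rats, changed direction in the settings run, while the median difference of the mitosis list (0.024 to -0.0245) and the median of the liver list at 22.5 mg/m3 (-0.098 to 0.23) changed sign in the 20 libraries. No paired analysis was possible because each rat has its own number and the groups share no replicate label. DESeq2 gave 180 falls at 22.5 mg/m3, 2 negative differences and 7 genes that grew. limma voom gave 193 falls at 22.5 mg/m3, 1614 rises and 1316 falls at 90 mg/m3, 7 positive differences and 7 genes that grew. The fit of 53 libraries gave 828 rises and 259 falls at 22.5 mg/m3, 684 falls at 90 mg/m3, 9 positive and 2 negative differences and 11 genes that grew. With the 2 libraries of the outlier label (24 in all) there were 46 rises and 2 falls at 22.5 mg/m3, 2070 rises and 170 falls at 90 mg/m3, 0 positive differences, 0 genes that grew and 18 full genes. The 20 libraries gave 186 and 750 falls at the 2 doses, and the 19 libraries without MWCNT_022 replicate 6 as well gave 1294 rises and 906 falls at 90 mg/m3. A bound for further change of 0.32 on the log2 scale left 70 full genes. MWCNT_090 against MWCNT_022 directly gave 27 higher and 6 lower genes, and both against pooled air gave 18 and 5. Leaving out 1 rat at a time gave 0 to 5 positive and 0 negative differences, 0 to 5 genes that grew, 106 to 187 full genes and 0 that became smaller. It gave 398 to 920 rises and 43 to 273 falls at 22.5 mg/m3, and 622 to 943 rises and 163 to 450 falls at 90 mg/m3. The genes chosen in the set of 180 mg/m3 then had medians of 0.90 to 1.01 and 1.06 to 1.12 for rises, and -0.52 to -0.44 and -0.71 to -0.66 for falls. In the 24 libraries their medians at 90 mg/m3 were 0.86 and -0.93. Chosen at 1.5-fold, rises had medians of 0.47 and 0.68 and falls -0.28 and -0.46 at the 2 doses. Chosen at 4-fold, they were 1.64 and 2.02, and -0.86 and -1.31. Chosen at 2-fold in the set of 45 mg/m3, they were 1.11 and 1.22, and -0.26 and -0.053. These fits differ in their libraries or method, and the cause of the changes between them was not tested. With 4 to 6 rats a group, differences under about 0.32 on the log2 scale were mostly beyond reach even before adjustment. After adjustment the smallest called difference was 0.61, and larger ones could go without a call, as that of Spp1 did (2.43).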
